A study of Homo sapiens with 8 samples.

Results

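The 10 BCL2-family genes examined here set the threshold for mitochondrial apoptosis. They were taken by symbol from the 18656 genes of the deposited table, and all 10 were found and tested. They comprised 3 pro-survival genes (BCL2L1, BCL2 and MCL1), the 2 effectors BAX and BAK1, and 5 BH3-only genes (BBC3, PMAIP1, BID, BIK and BCL2L11). RNA came from SW480, an established human colorectal cancer line, in 8 libraries. In 2 of them the cells had received a negative-control siRNA, labelled 0 h. The other 6 came from cells given an siRNA against TCF7L2, the TCF/LEF factor through which Wnt signals act on genes, for 24, 48 or 72 h, with 2 libraries at each time. Per the labels' protocol RNAiMAX lipofectamine carried the siRNA, and total RNA was sequenced after removal of ribosomal RNA. No control siRNA was sequenced at the later times, so silencing of TCF7L2 and elapsed time cannot be told apart. This holds in comparisons with 0 h and between the siRNA times. Nothing in the labels says that replicates were separate cultures, and the p-values then measure only the spread between these libraries.

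In the mitochondrial pathway, BAX and BAK1 form pores in the outer mitochondrial membrane, through which cytochrome c escapes and activates caspases. BCL2, BCL-XL (from BCL2L1) and MCL1 hold the effectors and the BH3-only proteins in check. BH3-only proteins are sensors of stress: they bind the pro-survival proteins through their BH3 helix, and some also activate BAX and BAK1 directly. In colorectal epithelium BCL-XL is known as a main survival protein. BBC3 (PUMA), PMAIP1 (NOXA) and BAX are textbook targets of p53, and BBC3 and PMAIP1 also respond to the ATF4 and CHOP stress factors.

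Values are TPM, the share of transcripts after correction for their length, as estimated by the authors with RSEM. TPM keeps no read depth, so no counting error could be given. A gene's value adds all its splice forms, of which GENCODE 29 lists 9 coding ones for BCL2L1 and 17 for BCL2L11. These forms were not separated, among them the long and short ones of BCL2L1, which have opposite activity. The second 72 h library had the lowest TPM sum over the listed genes (352456, against 448107 to 485602 in the others). Log2 changes were therefore computed after dividing each library by a median-ratio factor (0.797 in that library, 0.985 to 1.06 in the others), as log2(scaled TPM + 1). They are given ± SE from limma over all 8 libraries, with p-values adjusted over 11894 genes by Benjamini-Hochberg, and a gene was called at an adjusted p under 0.05. On this scale the changes of low genes are understated. TPM for single libraries are as deposited. Without scaling the median change of all genes at 72 h was -0.19, against 0.01 with it. The targeted gene TCF7L2 had 6.86 and 7.47 TPM at 0 h and 4.07 and 3.53 at 72 h (log2 change -0.58 ± 0.11, limma adjusted p = 0.00211). Its change was -0.26 ± 0.11 at 24 h (limma adjusted p = 0.287) and -0.56 ± 0.11 at 48 h (limma adjusted p = 0.0074), and from 48 to 72 h it was -0.02 ± 0.11 (limma adjusted p = 0.914).

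BCL2L1, BBC3, BCL2L11 and PMAIP1 were called at 72 h against each earlier time, PMAIP1 against 48 h only after scaling. By 72 h the mean scaled levels of BCL2L1 and the BH3-only gene BBC3 had fallen to 0.532 and 0.504 of those at 0 h (0.457 and 0.43 as deposited). The BH3-only genes BCL2L11 and PMAIP1 had risen to 2.16 and 1.71 times theirs (1.86 and 1.48 as deposited). MCL1, BIK and both effectors were not called at any time. By limma, 0 of 10 members were called at 24 h (2 at an unadjusted p under 0.05), against 1.04% of all genes tested (0.614% higher and 0.429% lower). That background was 124 genes and ranged from 0 to 299 as single libraries were left out. At 48 h, 3 were called (1 higher and 2 lower) against 23.4% of all genes (12.2% higher and 11.2% lower). At 72 h, 6 were called (3 higher and 3 lower) against 52% (26.5% higher and 25.5% lower). On the TPM as deposited 7 were called at 72 h, 2 higher and 5 lower. The members' share at 72 h was thus near the background, and their median log2 change was -0.15 against 0.01 for all genes. Fewer cells of a kind and less RNA per cell cannot be told apart in bulk RNA such as this.

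**Figure D1:**
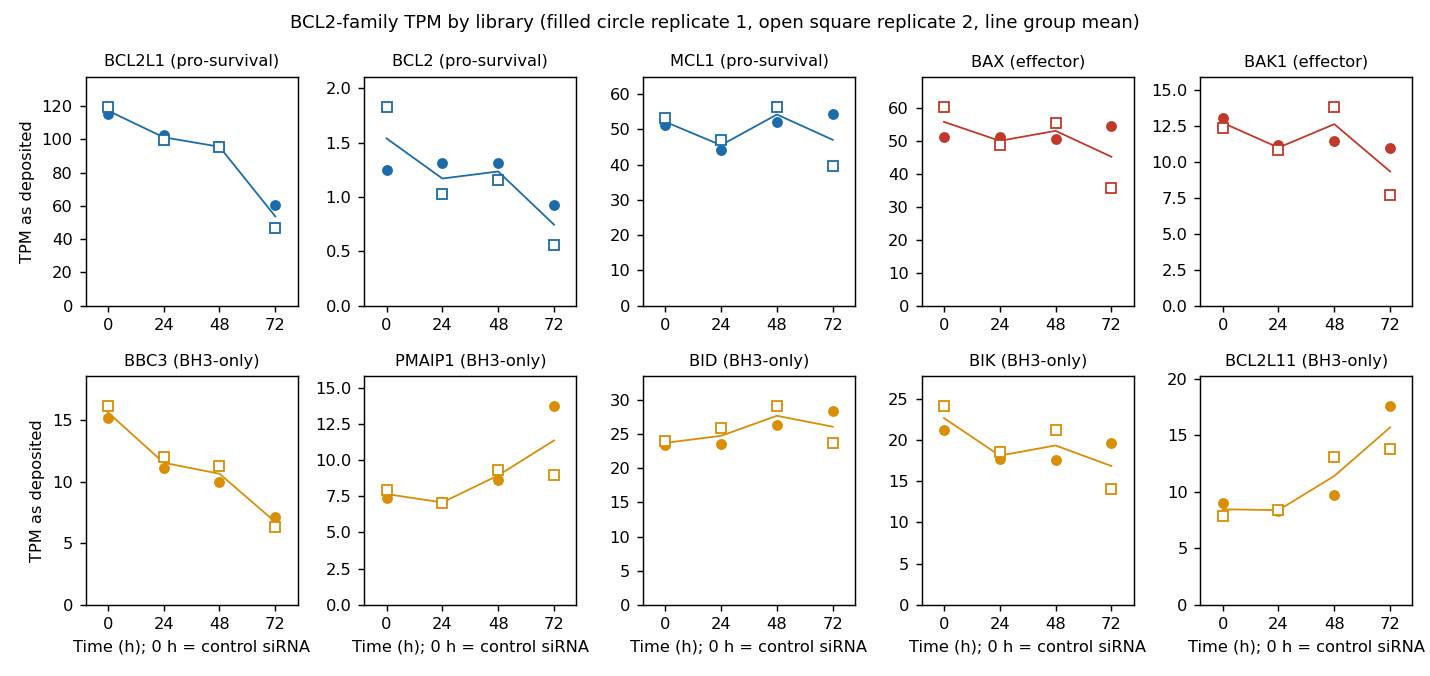
TPM as deposited (vertical axis, from 0) of the 10 BCL2-family genes in each library against time in hours; filled circles are replicate 1, open squares replicate 2, and lines join group means. BCL2L1 went from 115.15 and 119.51 at 0 h to 60.37 and 46.87 at 72 h, and BCL2L11 from 9 and 7.9 to 17.57 and 13.82.

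Promoter sequence was looked up because the silenced factor binds DNA and several members moved with time. RefSeq windows on GRCh38.p14, from 250 bases before to 50 after each start site, were found for 8 of the 10 members; MCL1 and BIK had no entry. BCL2L1 had 2 windows and BID 5, some of which overlapped, so the 8 members had 13, and all were searched. CTTTGAT (TCF/LEF), TGATGNAA (ATF4 with a C/EBP factor), CACGTG (the E-box bound by MYC) and the p53 half-site were searched on both strands, without overlap between the motifs in the matches found. The stretches before the start site are printed for the 4 members called at 72 h against each earlier time and for BAX and BAK1, which held most of the matches. Capitals mark matches to the searched motifs.
BCL2L1, first of its windows, minus strand, chr20:31723964-31724083: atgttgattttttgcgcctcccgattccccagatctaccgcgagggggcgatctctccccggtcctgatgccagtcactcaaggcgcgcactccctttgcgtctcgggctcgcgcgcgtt
BBC3, minus strand, chr19:47232668-47232911: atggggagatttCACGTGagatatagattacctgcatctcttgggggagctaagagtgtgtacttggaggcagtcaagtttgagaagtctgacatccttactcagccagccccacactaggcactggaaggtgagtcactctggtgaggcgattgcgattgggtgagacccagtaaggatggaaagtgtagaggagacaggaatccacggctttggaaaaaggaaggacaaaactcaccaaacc
BCL2L11, plus strand, chr2:111120794-111120913: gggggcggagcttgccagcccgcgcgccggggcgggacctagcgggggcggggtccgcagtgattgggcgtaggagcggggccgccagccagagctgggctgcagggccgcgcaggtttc
PMAIP1, plus strand, chr18:59899876-59899995: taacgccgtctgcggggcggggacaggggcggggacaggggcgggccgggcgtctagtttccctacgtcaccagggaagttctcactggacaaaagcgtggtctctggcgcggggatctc
BAX, plus strand, chr19:48954725-48954874: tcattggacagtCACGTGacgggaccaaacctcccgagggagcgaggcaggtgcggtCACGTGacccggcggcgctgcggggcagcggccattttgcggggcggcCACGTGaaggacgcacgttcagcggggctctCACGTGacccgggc
BAK1, minus strand, chr6:33580277-33580456: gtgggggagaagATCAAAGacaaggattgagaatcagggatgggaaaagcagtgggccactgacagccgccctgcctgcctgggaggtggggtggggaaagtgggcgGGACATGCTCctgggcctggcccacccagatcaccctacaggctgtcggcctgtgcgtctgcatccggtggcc

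Of the 8 members with a window, 1 held CTTTGAT, namely BAK1, in which it lies on the reverse strand and so reads ATCAAAG, 168 bases before the start. Counted by windows, as the background is, that was 1 of 13, against 2.62% of all 35116 windows. BAK1 also held the only p53 half-site among the members (1 of 13 windows, 6.63% of all), and TGATGNAA was in 0 of 13 windows (3.62% of all). The E-box was in 3 members and 4 of 13 windows (7.26% of all): BAX with 4 copies within 138 bases of the start, BBC3 with 1, and BID with 1 that lies in 2 overlapping windows. BCL2L1, BCL2L11, PMAIP1 and BCL2 had no match to any of the 4 motifs in these windows. The windows also differed in base composition: that of BBC3 was 48% G and C with 5 CpG dinucleotides, against 71.3% and 42 in PMAIP1 and 74.7% and 39 in BCL2L11. A match is a description of these letters and not a measured site. Sequence outside these windows was not searched, so a missing match does not show that a gene lacks such a site.

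Among the pro-survival genes, BCL2L1 was the most abundant member at 0 h. BCL2L1 (GRCh38 chromosome 20, 31664452 to 31723989) had 115.15 and 119.51 TPM at 0 h, 102.64 and 99.81 after 24 h, 95.72 and 95.37 after 48 h, and 60.37 and 46.87 after 72 h. Each group lay wholly below the one before it. After scaling the 72 h libraries differed little, at 58.8 ± 0.0564 TPM (SD, n = 2), against 110.6 ± 2.28 at 0 h. The log2 change was -0.11 ± 0.044 at 24 h (limma adjusted p = 0.231), and BCL2L1 fell by 0.28 ± 0.044 at 48 h (limma adjusted p = 0.00236) and by 0.90 ± 0.044 at 72 h (limma adjusted p = 4.49e-07). Between the siRNA times it fell by 0.62 ± 0.044 from 48 to 72 h (limma adjusted p = 1.86e-05). The step from 24 to 48 h was -0.17 ± 0.044 (limma adjusted p = 0.0353), and 9 of 19 alternatives ended that call. Among these were the fits without either 0 h, either 24 h or either 48 h library (adjusted p from 0.062 to 0.166). The 48 h call against 0 h was lost on the TPM as deposited (limma adjusted p = 0.317). At 72 h the change of BCL2L1 stood at percentile 1.92 among all genes tested. In GENCODE 29, 43% of the exon bases of BCL2L1 also lie in exons of ABALON, an antisense RNA. No source used here gives the authors' strand setting, so it is unknown whether reads of ABALON and BCL2L1 from these shared bases were told apart.

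MCL1, a short-lived pro-survival protein's gene (chromosome 1, 150574551 to 150579738), had 51.14 and 53.08 TPM at 0 h, 44.06 and 46.91 after 24 h, 52.04 and 56.34 after 48 h, and 54.46 and 39.56 after 72 h. The 72 h libraries spanned the control ones. Its log2 change at 72 h was 0.06 ± 0.063 (95% interval -0.08 to 0.20, limma adjusted p = 0.436). That interval excludes a change of the size seen in BCL2L1. As deposited the sign of the MCL1 value turned, to -0.16, and it was not called either way. BCL2 (chromosome 18, 63123346 to 63320128) was the lowest member, with 1.25 and 1.83 TPM at 0 h, 1.31 and 1.03 after 24 h, 1.31 and 1.16 after 48 h, and 0.93 and 0.56 after 72 h. Both 72 h libraries lay below all the others. BCL2 fell by 0.44 ± 0.14 at 72 h (limma adjusted p = 0.0288). The mean scaled level was 0.554 of that at 0 h. At levels this close to the pseudocount the value ranged from -0.77 with a pseudocount of 0.1 to -0.15 with a pseudocount of 5. BCL2 did not pass when the second library of 0 h (-0.28, adjusted p = 0.213) or of 72 h (-0.36, adjusted p = 0.132) was left out, nor in a fit of the 2 groups alone (adjusted p = 0.0537).

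Neither effector was called at any time against 0 h after scaling. BAX (chromosome 19, 48954815 to 48961798) had 51.27 and 60.34 TPM at 0 h, 51.24 and 48.83 after 24 h, 50.7 and 55.43 after 48 h, and 54.64 and 35.76 after 72 h. The libraries of 72 h lay on both sides of the lower control value. Its log2 change at 72 h was -0.10 ± 0.093 (95% interval -0.31 to 0.11, limma adjusted p = 0.398). BAK1 (chromosome 6, 33572547 to 33580293) had 13.07 and 12.38 TPM at 0 h, 11.17 and 10.82 after 24 h, 11.43 and 13.83 after 48 h, and 10.96 and 7.71 after 72 h. Both 72 h libraries were below both controls, but the log2 change of -0.22 ± 0.096 missed the threshold (95% interval -0.43 to 0.00, limma adjusted p = 0.0815). On the TPM as deposited BAK1 was called lower at 72 h (-0.43, adjusted p = 0.0231), where all genes had the median of -0.19.

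The BH3-only genes moved in both directions. BBC3 (chromosome 19, 47220822 to 47232766), which encodes PUMA, a binder of all main pro-survival proteins, had 15.15 and 16.13 TPM at 0 h, 11.09 and 11.98 after 24 h, 9.99 and 11.3 after 48 h, and 7.17 and 6.28 after 72 h. All 6 siRNA libraries lay below both controls. The log2 change of BBC3 was -0.32 ± 0.092 at 24 h, which did not pass (limma adjusted p = 0.124), and it fell by 0.50 ± 0.092 at 48 h (limma adjusted p = 0.00466) and by 0.90 ± 0.092 at 72 h (limma adjusted p = 4.17e-05). From 48 to 72 h it fell by 0.40 ± 0.092 (limma adjusted p = 0.00767), which did not pass with the second 48 h library left out (-0.32, adjusted p = 0.0646). At 72 h BBC3 stood at percentile 1.88 among all genes, next to BCL2L1.

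BCL2L11 (chromosome 2, 111119378 to 111168447) encodes BIM, which both activates the effectors and binds every main pro-survival protein. It had 9 and 7.9 TPM at 0 h, 8.34 and 8.41 after 24 h, 9.68 and 13.11 after 48 h, and 17.57 and 13.82 after 72 h. Levels at 24 h were within the control range, and both 72 h libraries exceeded all earlier ones. BCL2L11 rose by 1.03 ± 0.12 at 72 h against 0 h (limma adjusted p = 0.000103) and by 0.64 ± 0.12 from 48 to 72 h (limma adjusted p = 0.00302), and stood at percentile 96.9 at 72 h. At 48 h its log2 change was 0.39 ± 0.12 (limma adjusted p = 0.045), a call that rested on few libraries. It was lost in 12 of 19 alternatives, among them without either 0 h library (0.48 and 0.30, adjusted p = 0.0739 and 0.218), either 24 h library (adjusted p = 0.064 and 0.0648) or the second 48 h library (0.19, adjusted p = 0.275). Of its exon bases 10.9% lie in exons of the long noncoding RNA MIR4435-2HG on the other strand.

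PMAIP1 (chromosome 18, 59899948 to 59904306), the gene of NOXA, which binds mainly MCL1, had 7.4 and 7.9 TPM at 0 h, 7.11 and 7.03 after 24 h, 8.6 and 9.28 after 48 h, and 13.72 and 8.98 after 72 h. As deposited the second 72 h library lay within the 48 h range, and after scaling both 72 h libraries were above both at 48 h. PMAIP1 rose by 0.69 ± 0.095 at 72 h against 0 h (limma adjusted p = 0.000255) and by 0.48 ± 0.095 from 48 to 72 h (limma adjusted p = 0.00356), the second call being lost on the TPM as deposited (0.29, adjusted p = 0.177). At 48 h against 0 h it had 0.21 ± 0.095 (limma adjusted p = 0.141).

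BID (chromosome 22, 17734138 to 17774770), which caspase-8 cleaves to link death receptors to mitochondria, had 23.41 and 24.04 TPM at 0 h, 23.54 and 25.98 after 24 h, 26.29 and 29.1 after 48 h, and 28.43 and 23.77 after 72 h. Its deposited values at 72 h overlapped the controls, and after scaling they did not. BID rose by 0.35 ± 0.076 at 72 h (limma adjusted p = 0.00385), which was 0.13 and not called on the TPM as deposited (adjusted p = 0.544). At 48 h the value was 0.22 ± 0.076 (limma adjusted p = 0.0605), and 4 of 19 alternatives called it. BIK (chromosome 22, 43110748 to 43129712), a BH3-only protein of the endoplasmic reticulum, had 21.21 and 24.09 TPM at 0 h, 17.71 and 18.48 after 24 h, 17.51 and 21.15 after 48 h, and 19.57 and 14.1 after 72 h. The siRNA libraries lay below both controls at each time. The log2 change of BIK was nearly the same throughout, -0.21 ± 0.095 at 24 h, -0.21 ± 0.095 at 48 h and -0.20 ± 0.095 at 72 h, and none of the 3 passed (limma adjusted p = 0.303, 0.141 and 0.0987). As deposited BIK was called lower at 72 h (-0.42, adjusted p = 0.0238).

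**Figure D2:**
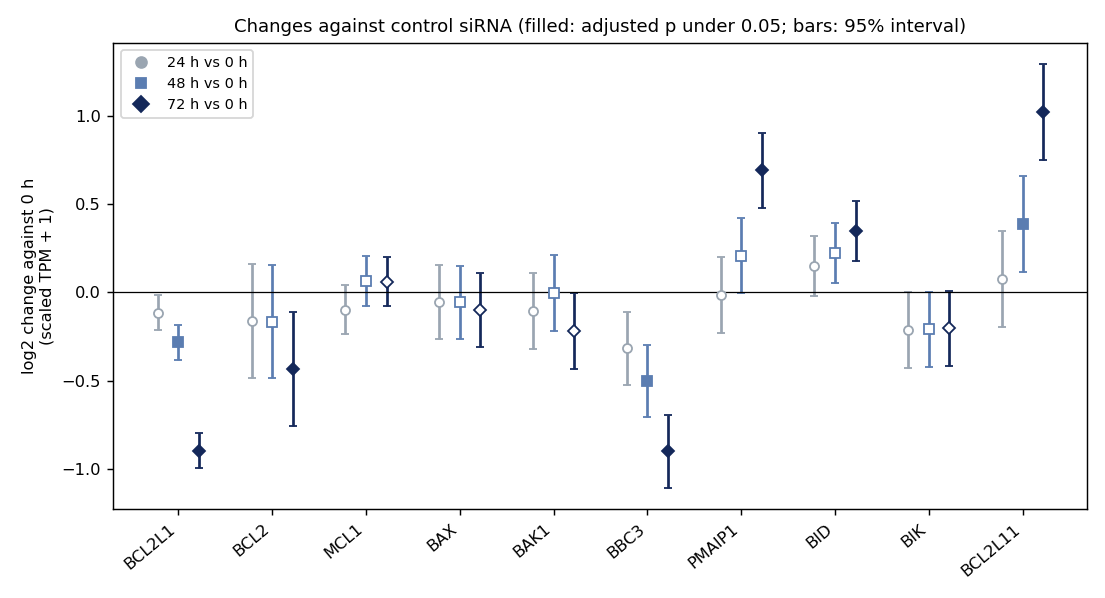
Log2 change of scaled TPM + 1 against the 0 h control (vertical axis) for the 10 genes at 24 h (circles), 48 h (squares) and 72 h (diamonds); bars are 95% intervals from limma and filled symbols have an adjusted p under 0.05. At 72 h BCL2L1 and BBC3 lie near -0.90, and BCL2L11 and PMAIP1 at 1.03 and 0.69.

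The same genes were compared between the siRNA times, which share the TCF7L2 siRNA. These times also differ in elapsed time, with no control siRNA at any of them. TCF7L2 itself had a log2 change of -0.32 ± 0.11 from 24 to 72 h (limma adjusted p = 0.0408). From 24 to 72 h, 4 members were called, against 50.1% of all genes (25.7% higher and 24.4% lower): BCL2L1 (-0.79 ± 0.044) and BBC3 (-0.58 ± 0.092) lower, and BCL2L11 (0.95 ± 0.12) and PMAIP1 (0.71 ± 0.095) higher, with limma adjusted p-values of 1.39e-06, 0.000621, 0.000181 and 0.000246. From 48 to 72 h the same 4 members were called in the same directions, against 40% of all genes (20.9% higher and 19% lower). As deposited it was also 4, but 1 higher and 3 lower, with BAK1 called (-0.41, limma adjusted p = 0.0424) and PMAIP1 not. Over all genes 590 were then called higher and 2621 lower. From 24 to 48 h BCL2L1 alone was called, as lower, against 14% of all genes (7.74% higher and 6.22% lower). BID missed the threshold from 24 to 72 h (0.20 ± 0.076, limma adjusted p = 0.0541), as did MCL1 (0.16 ± 0.063, limma adjusted p = 0.0592). BID was called in 6 of 19 alternatives for this comparison, and MCL1 in 3 of 19.

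Because TPM corrects for length, levels and ratios could be compared between genes within a library, where library scaling plays no part. At 0 h the mean TPM ran in the order BCL2L1 (117.3), BAX (55.8), MCL1 (52.1), BID (23.7), BIK (22.7), BBC3 (15.6), BAK1 (12.7), BCL2L11 (8.45), PMAIP1 (7.65) and BCL2 (1.54). BAX and MCL1 overlapped between libraries, as did BID and BIK, and so did BCL2L11 and PMAIP1 (7.9 TPM each in the second 0 h library). At 72 h BCL2L1 (53.6), MCL1 (47.0) and BAX (45.2) overlapped between libraries, though BCL2L1 was the highest of them in both, and BCL2L11 (15.7) had moved above BBC3 (6.73) and BAK1 (9.34). The ratio of MCL1 to BCL2L1 was 0.444 in both 0 h libraries, 0.429 and 0.47 after 24 h, 0.544 and 0.591 after 48 h, and 0.902 and 0.844 after 72 h. BCL2L1 accordingly made up 68.7 and 68.5% of the summed pro-survival TPM at 0 h, and 52.2 and 53.9% at 72 h. BCL2L11 and BBC3 exchanged places: their ratio was 0.594 and 0.49 at 0 h, 0.752 and 0.702 after 24 h, 0.969 and 1.16 after 48 h, and 2.45 and 2.2 after 72 h.

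The summed TPM of the 7 effector and BH3-only members, divided by that of the 3 pro-survival members, was 0.839 and 0.876 at 0 h, 0.88 and 0.89 after 24 h, 0.9 and 1 after 48 h, and 1.31 and 1.27 after 72 h. Both 72 h libraries lay above all others. As deposited, the pro-survival sum was 167.5 and 174.4 TPM at 0 h and 115.8 and 87.0 at 72 h. The BH3-only sum was 76.2 and 80.1 TPM at 0 h and 86.5 and 67.0 at 72 h. Unlike the ratios, these sums depend on library scaling. The second 72 h library had the lowest factor (0.797), so its sums are lower as deposited than after scaling. The ratio follows the choice of members and was not tested. These are RNA levels, and the proteins were not measured in the data used here.

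**Figure D3:**
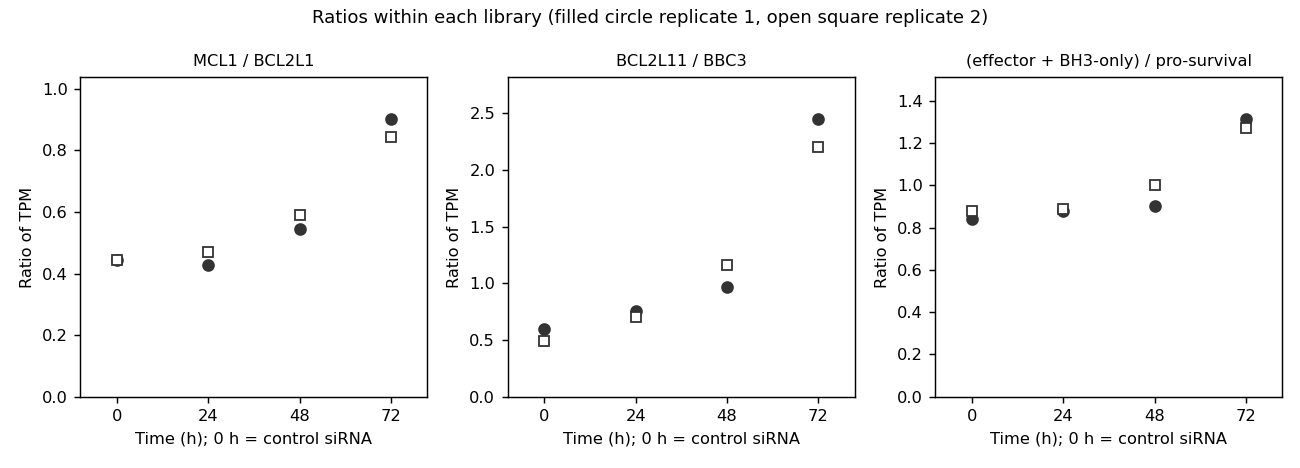
Ratios of deposited TPM within each library (vertical axes, from 0) against time in hours, for MCL1 to BCL2L1, BCL2L11 to BBC3, and the effector and BH3-only sum to the pro-survival sum; filled circles are replicate 1 and open squares replicate 2. In each panel both 72 h libraries lie above all others, at 0.902 and 0.844 for MCL1 to BCL2L1.

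Other family members and the rest of the pathway were described from lists chosen by function. At 72 h against 0 h, 3155 of all genes tested were called higher and 3029 lower (1253 and 3715 on the TPM as deposited). Of 13 further BCL2-family genes, 8 could be tested; 2 fell and 6 did not pass, with a median log2 change of -0.11. The genes that fell were BCL2L2, the gene of the pro-survival protein BCL-W (-0.27 ± 0.080, limma adjusted p = 0.0186), and BCL2L12 (-0.28 ± 0.084, limma adjusted p = 0.0191). The BCL2L2 call was lost without the first (adjusted p = 0.0919) or second (0.0519) 0 h library or the second 72 h library (0.0695), and that of BCL2L12 without the first 0 h (-0.23, 0.112) or second 72 h library (-0.17, 0.124). BCL2A1, BCL2L10, HRK, BCL2L14 and BNIP3 were below 1 TPM in all 8 libraries and were not tested.

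Downstream of the mitochondria, 2 of 12 apoptosome and caspase genes rose, 3 fell and 7 did not pass (median -0.02). APAF1, the scaffold of the apoptosome, went from 4.51 and 3.93 to 8.1 and 6.22 TPM (0.83 ± 0.11, limma adjusted p = 0.000235). CYCS, which encodes cytochrome c, went the other way, from 225.34 and 228.71 to 166.92 and 121.03 TPM (-0.44 ± 0.049, limma adjusted p = 7.26e-05), and the nuclease gene ENDOG fell by 0.53 ± 0.095. DFFA, the inhibitor of the caspase-activated nuclease, rose by 0.23 ± 0.061 (limma adjusted p = 0.00977). That call was lost as deposited (0.01, adjusted p = 0.962), without the second 0 h library (adjusted p = 0.0564) and without the second 72 h library (adjusted p = 0.0567). Of 5 inhibitor of apoptosis genes tested, 2 rose and 2 fell (median 0.11). BIRC3 (cIAP2) rose by 0.96 ± 0.11, while BIRC5, which encodes survivin and is expressed in mitosis, fell by 0.59 ± 0.068 and BIRC6 by 0.40 ± 0.071. XIAP, the direct caspase inhibitor, was called higher (0.48 ± 0.14, limma adjusted p = 0.0185), but not as deposited (0.26, adjusted p = 0.184), nor without the first 0 h (0.30, adjusted p = 0.146) or either 72 h library (adjusted p = 0.0545 and 0.0609), nor with no filter on low genes (adjusted p = 0.057). Of 6 outer membrane partners tested, VDAC2, a channel that holds BAK1 at the membrane, fell by 0.43 ± 0.062. VDAC1 rose by 0.26 ± 0.044, which was 0.03 and not called as deposited (adjusted p = 0.901), and the other 4 did not pass (median of the 6, -0.01).

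Upstream, the death receptor genes had 5 of 12 higher and 1 lower (median 0.15). Of the 5, TNFSF10 and FASLG were under 1 TPM in both 0 h libraries and could be tested only through the later libraries where they were high. TNFRSF10B, the TRAIL receptor DR5, went from 41.4 and 44.43 to 19.9 and 15.56 TPM (-1.02 ± 0.057, limma adjusted p = 1.06e-06). Its ligand gene TNFSF10 rose from 0.13 and 0.17 to 1.14 and 1.03 TPM (0.95 ± 0.12), FASLG from 0.79 and 0.49 to 2.21 and 1.21 (0.82 ± 0.15) and FAS from 1.17 and 1.03 to 2.51 and 1.78 (0.71 ± 0.14), all at low levels. Under the alternatives these log2 changes ranged from 0.27 to 2.43 for TNFSF10, 0.29 to 1.47 for FASLG and 0.28 to 1.10 for FAS. Among p53 and its targets, 6 of 20 rose and 7 fell (median 0.02), with 1 of the 6, TP53INP1, testable only through the later libraries. SESN2 fell by 1.26 ± 0.080 and XPC by 0.76 ± 0.076, while BTG2 rose by 1.14 ± 0.088 and GADD45A by 0.55 ± 0.044, the last not called as deposited (0.32, adjusted p = 0.105). Members of this list thus moved both ways, as did the p53 targets BBC3 and PMAIP1 among the family. Of 10 transcription regulators of the family 2 rose and 5 fell (median -0.25), with 1 of the 2, FOXO1, testable only through the later libraries. The integrated stress response genes were among the lower ones: TRIB3 fell by 3.29 ± 0.050, DDIT3, which encodes CHOP, by 1.61 ± 0.072 and ATF4 by 0.64 ± 0.040, and MYC fell by 0.70 ± 0.043. Of 4 genes for turnover of the MCL1 protein, all were called. The ligase genes FBXW7 (0.78 ± 0.066) and BTRC (0.62 ± 0.12) rose. The ligase gene HUWE1 (-0.60 ± 0.067) and the deubiquitinase gene USP9X (-0.42 ± 0.055) fell. The RNA of MCL1 was not called, and its protein was not measured.

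**Figure D4:**
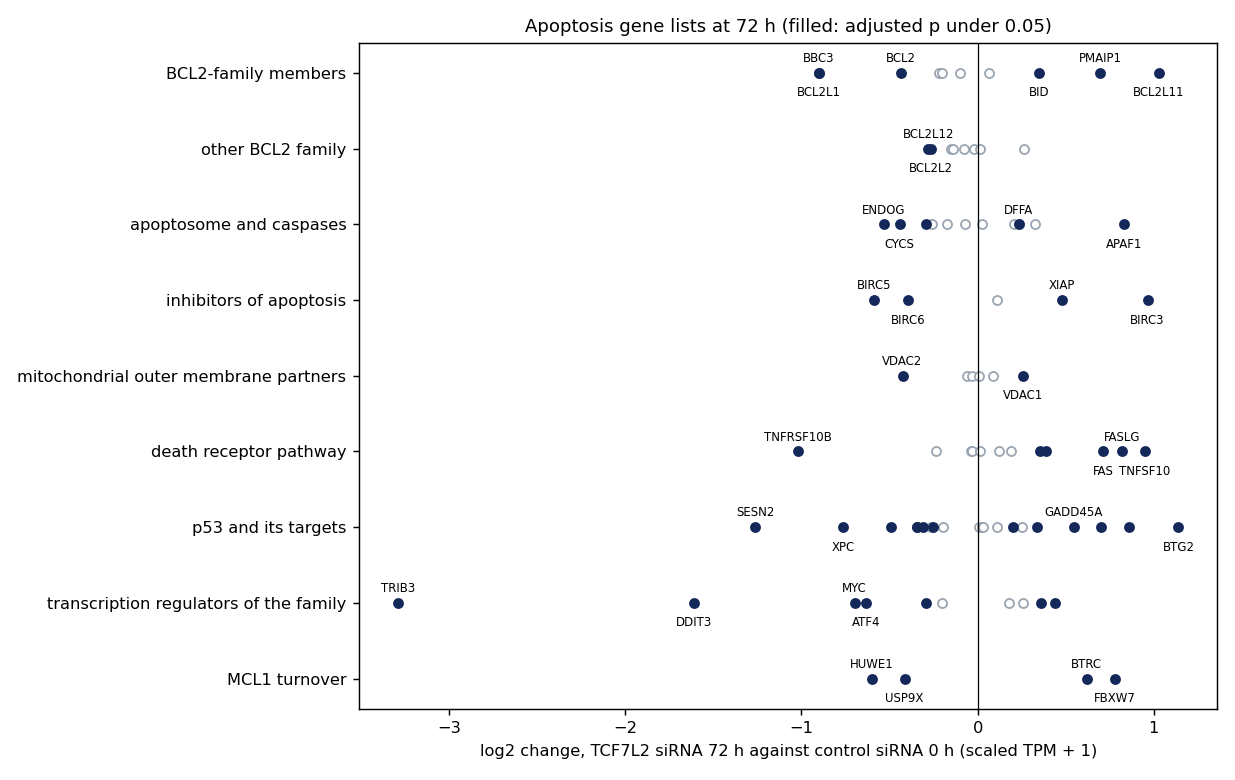
Log2 change of scaled TPM + 1 at 72 h against the 0 h control (horizontal axis) for each tested gene of the BCL2-family members and 8 apoptosis-related lists (rows); filled points have a limma adjusted p under 0.05. Called points lie on both sides of 0 in every row except the other BCL2 family genes, whose 2 called points, BCL2L2 and BCL2L12, are lower.

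The genes whose course over the 8 libraries was most like that of each called member were picked by the smallest root-mean-square difference of centred log2 values, among genes of 5 TPM or more on average. For BCL2L1 these were STEAP1, SH3RF3 and ETV4, with differences of 0.0251, 0.0386 and 0.0418 and 72 h changes of -0.92, -0.97 and -0.93. For BBC3 they were FGF19, JADE1 and IER5L (0.0703 to 0.0796), and for BCL2L11 ADAMTS19, SPTY2D1 and ODF2L (0.0992 to 0.104). PMAIP1 was closest to KRR1, CD46 and NIN (0.0473 to 0.0616), BID to COX7A2, SLC35F2 and ESCO1 (0.0392 to 0.0445), and BCL2 to EARS2, DNPEP and ZNF740 (0.0546 to 0.0696). These lists describe only likeness in the shape and size of the course on the scale of log2(scaled TPM + 1).

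The labelled cell type was checked against markers. Of the 10 colorectal epithelial markers, 8 were at 1 TPM or more in at least 1 library of 0 h. The 10 had a summed level of 2740 to 2754 TPM at 0 h and 2515 to 3359 at 72 h. At 72 h 8 of the 10 were called higher and 1, CDX2, lower. Of all genes tested, 26.5% were called higher and 25.5% lower. CEACAM5 and KRT20, among the higher ones, were under 1 TPM in both 0 h libraries and could be tested only through the later ones. The summed 6 fibroblast markers were 10.9 to 12.8 TPM at 0 h and 36.1 to 52.2 at 72 h, most of it from LUM, and the 3 that could be tested were called higher, COL3A1 being testable only through the 72 h libraries, while PDGFRB stayed at or below 0.61 TPM. The 6 leukocyte markers summed to 4.58 to 5.97 TPM at 0 h and 27.4 to 30.3 at 72 h, and the 2 that could be tested, CD68 and LYZ, were called higher, while PTPRC, the pan-leukocyte marker, reached at most 0.63 TPM. The 4 endothelial markers summed to at most 0.6 TPM. The fibroblast and leukocyte sums were thus higher at 72 h than at 0 h, and the epithelial sums at 72 h spanned those at 0 h. The part of these marker changes in the results was not tested.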

How the data were processed

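The authors deposited 1 table of TPM for 18656 gene symbols and 8 libraries, whose name gives RSEM as their source. Per the submitters' processing notes, FastQC, Trimmomatic, STAR, Picard, SAMtools and RSEM were among the tools and hg19 was the build. No source used here gives versions, annotation or strand setting, and depth cannot be read from TPM. Column names matched the sample titles, and 0 further sample columns were present.

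TPM were divided by a median-ratio factor per library (over 10902 genes of 1 TPM or more in every library), 1 was added and log2 taken. Genes of 1 TPM or more in at least 2 libraries (11894) entered limma 3.58.1 in R 4.3.3, fitted to 4 groups of 2 libraries (4 residual degrees of freedom, variance trend, Benjamini-Hochberg, two-sided, 6 comparisons). Unscaled TPM gave infinite prior degrees of freedom, so that a gene's own spread was ignored, and 5.41 after scaling; scaling was therefore used here. The fit was tested on simulated data.

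The members and lists were chosen with earlier results of these data known. Named genes were all members, up to 4 called genes per list with the smallest p at 72 h, and the 3 nearest profiles of each member called at 72 h. Of the listed genes, MARCHF5 was not matched. Gene positions are from GENCODE 29 (GRCh38) and promoters from RefSeq (GRCh38.p14), not the authors' build. Alternatives were other pseudocounts, filters, scalings and variance models, a replicate block, fits of 2 groups and leaving out each library.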

Additional observations from a re-analysis of the deposited data

Results flagged for a closer look

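The change against 0 h differed between 24 and 72 h in 4 members, by the limma test of the difference itself, in which both 2-library groups did not overlap. That test is the comparison of 72 h with 24 h given above, in which 50.1% of all genes were called. The 72 h change minus the 24 h change was -0.785 (log2) for BCL2L1, -0.584 for BBC3, 0.708 for PMAIP1 and 0.949 for BCL2L11.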

How the results depend on the processing

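For the 10 members in 6 comparisons, 1087 of 1134 values under the alternatives kept their side of the threshold, with 28 calls lost, 19 gained and 0 called values changing sign. Most of the 60 comparisons of a member were not called in the main fit and so had no call to lose. The 72 h changes of BCL2L1, BBC3, PMAIP1 and BCL2L11 against 0 h were called in all 19 alternatives. On the TPM as deposited, 1 member was called at 48 h against 0 h and 0 from 24 to 48 h (1 at an unadjusted p under 0.05, by limma), and all genes called numbered 55 at 24 h (25 higher, 30 lower; 73 and 51 with scaling), 922 at 48 h and 597 from 24 to 48 h (512 higher, 85 lower; 921 and 740 with scaling). The split was 1429 higher and 2548 lower from 24 to 72 h and 590 and 2621 from 48 to 72 h, against 3054 and 2901, and 2489 and 2265, with scaling. With equal listed sums it was 57 higher and 113 lower at 24 h and 1065 and 2127 at 48 h (1456 and 1330 with median-ratio scaling). Quantile normalization called 7 members from 24 to 72 h, and 5981 genes in all (5955 with median-ratio scaling). At 24 h, 16 genes were called with no filter, 194 with a minimum of 5 TPM, which removes BCL2, and 20 with no variance trend. From 24 to 48 h, 0 members were called with no variance trend (3 at an unadjusted p under 0.05, by limma) and in the fit of 2 groups (4 at an unadjusted p under 0.05). Over all genes these settings called 1385 and 1756.

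Leaving out 1 library gave 0 members at 24 h throughout, 2 to 4 at 48 h, 5 to 6 at 72 h, 0 to 1 from 24 to 48 h, 4 to 5 from 24 to 72 h and 3 to 5 from 48 to 72 h. Over all genes it gave 0 (without the first 24 h library; 1457 at an unadjusted p under 0.05, by limma) to 299 (without the second 72 h library) at 24 h, where each of the 8 libraries moved the count by over 1.5 times, 1334 to 3140 at 48 h (over 1.5 times lower without any 0 or 48 h library), 4903 to 6022 at 72 h, 618 to 1943 from 24 to 48 h (over 1.5 times lower without any 24 or 48 h library), 4605 to 5811 from 24 to 72 h and 3193 to 4573 from 48 to 72 h. A lone library was assumed to vary like the other groups. The cause of these shifts was not tested, beyond the fewer libraries.

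Libraries of the same replicate number shared little: the 6 correlations of their deviations from the group means ran from -0.085 to 0.106, so the numbers were not taken as a pairing. With the replicate number as a block, 0, 3 and 6 members were called at 24, 48 and 72 h against 0 h (4 of 10 at an unadjusted p under 0.05 at 24 h, by limma), and 91, 2674 and 6148 genes in all, against 124, 2786 and 6184 without it. At 48 h the block exchanged BCL2L11 (adjusted p = 0.0588, limma) for BID (0.0338). From 24 to 72 h it added BID (limma adjusted p = 0.0275), for 5 members instead of 4, and 5878 genes were called in all (5955 without it). Without counts, the depth behind the low values of BCL2, TNFSF10, FASLG and FAS is unknown.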
